A study of Mus musculus with 16 samples.

Results

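The interferon-inducible GTPases described here are 10 genes of 2 mouse families: the immunity-related GTPases (IRGs) Igtp, Irgm1, Irgm2 and Iigp1, and the guanylate-binding proteins (GBPs) Gbp2, Gbp3, Gbp4, Gbp5, Gbp7 and Gbp9. They were taken by name from the 54456 gene rows of the count table, and all 10 passed the filter on low counts that left 15675 genes for testing. The study profiled bulk RNA of T cells sorted from OT-I mice, in which most T cells are CD8 cells bearing 1 transgenic receptor specific for ovalbumin. Lymph node (LN) and visceral adipose tissue (VAT) were sampled, either in lean mice or in mice fed for 8 weeks a diet that supplies 60% of calories as fat (HFD). The same time of 8 weeks is given for the lean mice. Each of the 4 groups (HFD LN, HFD VAT, lean LN and lean VAT) holds 4 libraries, so that all groups share the OT-I receptor and the sort. Every library was labelled as a biological replicate, and nothing said which LN and VAT libraries came from the same mouse. The labels disagree on whether the cells were used fresh or after a night in culture, and gave no age or sex of the mice. The column names of all 16 libraries also hold the term Neg-OVA, whose meaning is not given in the sources used here.

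IRGs and GBPs are large GTPases that interferon-gamma, and to differing extents type I interferon, induces in most mouse cells through interferon regulatory factors and other interferon-activated factors. They assemble on the membranes of vacuoles that hold pathogens, on pathogens in the cytosol and on lipid droplets or Golgi membranes. Within the IRGs, Igtp (also called Irgm3), Irgm1 and Irgm2 form a regulatory class that keeps effector IRGs such as Iigp1 (Irga6) inactive on the cell's own membranes. GBPs bind guanine nucleotides, form oligomers and can promote inflammasome activation, and Irgm1 is also known for a role in the survival of T cells exposed to interferon-gamma.

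The sequence around the start sites was read for letters that match the cores of interferon response elements. A pair of short motifs was searched on both strands of promoter windows from RefSeq (build GRCm38.p6, 250 bases before to 50 after each annotated start): the core of the interferon-stimulated response element (ISRE), GAAANNGAA, bound by interferon regulatory factors, and the core of the gamma-activated site (GAS), TTCNNNGAA, an element of interferon-gamma responses. Windows were read for 7 of the 10 members, with 2 start sites for Gbp3, and Gbp4, Gbp9 and Iigp1 were not analysed here. All 7 genes held an ISRE core in at least 1 window. By window it was 7 of their 8 windows, against 8.56% of the 32851 windows of all genes. A GAS core was found in 4 of the 7 genes (Igtp, Irgm2, Gbp5 and Gbp7) and in 4 of the 8 windows, against 8.30% of all windows. Such a match is a description of letters and not a measured binding site. The stretches with the matches of 6 members are shown because they let the arrangement of the motifs be compared, with ISRE and GAS cores in capitals.
Igtp: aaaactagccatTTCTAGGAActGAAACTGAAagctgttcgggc
Irgm2: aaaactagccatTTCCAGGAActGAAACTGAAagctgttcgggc
Irgm1: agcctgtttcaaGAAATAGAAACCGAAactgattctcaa
Gbp2: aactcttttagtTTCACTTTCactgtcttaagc
Gbp3: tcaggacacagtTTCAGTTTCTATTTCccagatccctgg
Gbp7: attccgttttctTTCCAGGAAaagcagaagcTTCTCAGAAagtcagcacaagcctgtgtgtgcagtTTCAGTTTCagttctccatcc
Each is written 5′ to 3′ on the strand of its gene. Igtp lies at chr11:58199499-58199542 and Irgm2 at chr11:58214890-58214933, both on the plus strand, and Irgm1 at chr11:48871424-48871462 on the minus strand. Gbp2 lies at chr3:142620593-142620625, Gbp3 at chr3:142559988-142560026 and Gbp7 at chr3:142530218-142530304, all on the plus strand. Over the 44 bases shown, Igtp and Irgm2 differed at 1 position, inside the GAS core. In both, the ISRE core began 11 bases after the first base of the GAS core, which leaves 2 bases between them. That pair occurred in 8 of the 32851 windows (0.0244%), among them those of Igtp, Irgm2 and the IRG genes Tgtp1, Tgtp2 and Gm12185. Irgm1 and Gbp3 each held 2 ISRE cores that overlap each other, and Gbp2 held 1. In Gbp7, 2 GAS cores preceded the ISRE core, and in Gbp5 GAS cores began at -245 and -52 and an ISRE core at -164 bases from the start site.

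**Figure D1:**
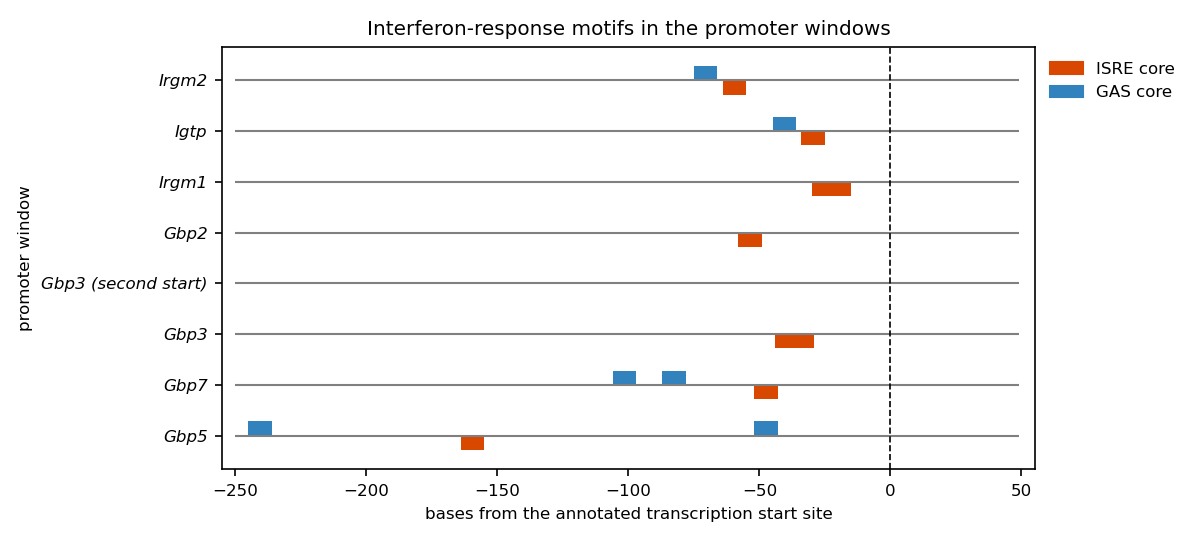
Positions of ISRE cores (red) and GAS cores (blue) in the 8 promoter windows of 7 members, in bases from the annotated start site (dashed line). The matches of Igtp and Irgm2 have the same spacing, and the second start site of Gbp3 has no match to either motif.

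Total counts were 40212388 to 65957407 per library, and 3 counts correspond to 0.0437 to 0.0803 CPM (CPM are counts scaled to a common library size, here after TMM normalisation). Markers of T cells summed to 6370 to 9565 CPM in every library, and Cd4 was under 5 CPM in all libraries. Inside that sum the CD8 chains moved apart with tissue by edgeR: Cd8a was higher in VAT (665 ± 112 and 2077 ± 215 CPM in HFD LN and VAT, adjusted p = 1.68e-05) and Cd8b1 lower (2072 ± 133 and 1228 ± 120 CPM, adjusted p = 0.00241), and both were called the same way in lean mice, with Cd247 lower there too. Markers of CD4 T cells, Cd4 among them, summed to 24.8 to 65.2 CPM in HFD LN and 116 to 175 CPM in HFD VAT. In lean LN and VAT they summed to 25.3 to 68.9 and 83.1 to 120 CPM. Of 3 tested, edgeR called 1 lower in VAT on HFD and 1 higher in lean mice, against 1.88% and 2.12% of all genes tested. Foxp3 was under 1 CPM in every group. The marker sum of B cells was 1621 to 3106 CPM in LN libraries and 85.6 to 360 CPM in VAT libraries, and all 9 tested B cell markers had estimates lower in VAT on both diets. Of these edgeR called 7 lower at an adjusted p under 0.05 on HFD, where 1.88% of all genes tested were called lower, and 6 in lean mice, where 0.919% were. Dendritic cell markers summed to 340 to 890 CPM in HFD LN and 74.9 to 277 CPM in HFD VAT, and to 202 to 1200 CPM in lean LN and 109 to 125 CPM in lean VAT. Of 7 tested, Cd74 was called lower on each diet, while 4 estimates on HFD and 3 in lean mice were above 0. Itgax on HFD (log2 difference 14.7) and Xcr1 (4.14) and Clec9a (2.97) in lean mice were higher in VAT without overlap and not called by edgeR. H2-Ab1 in lean mice was lower without overlap (-3.70) and not called. Siglech and Cd209a were under 1 CPM in every group. In every VAT library Ms4a1, Pax5, Fcmr and Blk were under 1 CPM. NK cell markers summed to 13.8 to 123 CPM in LN and 272 to 633 CPM in VAT, with Ncr1 under 1 CPM in all groups. Macrophage markers summed to 33.4 to 188 CPM over all libraries, with Adgre1, Cd14 and C1qa under 1 CPM. Lyz2 had no count in LN and reached 16.1 CPM in HFD VAT and 17.8 CPM in lean VAT. Csf1r and C1qb exceeded 1 CPM only in HFD VAT, and Fcgr1, C1qc and Mrc1 only in lean VAT. Apoe did so in every group but HFD VAT. Summed adipocyte and neutrophil markers reached at most 0.308 and 0.189 CPM. Fibroblast markers summed to at most 40.5 CPM in HFD VAT, 11.9 CPM in lean VAT and under 1 CPM in LN. Endothelial markers summed to 70.3 to 204 CPM in LN and 29.0 to 103 CPM in VAT. Well-covered genes (median of 10 CPM or more elsewhere) were nearly absent, at 3 counts or fewer, more often in HFD VAT replicate 1 (11.4% of them), HFD VAT replicate 3 (11.5%) and lean VAT replicate 1 (13.3%) than in the other 13 libraries (0.818% to 5.45%). The fits were repeated without these libraries.

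Between the tissues on HFD, the GTPases were higher in VAT than in LN. The summed level of the 10 members was 946 ± 101 CPM in HFD LN and 7035 ± 884 CPM in HFD VAT (mean ± SD, n = 4 libraries each). Calls were made with the quasi-likelihood test of edgeR at a Benjamini-Hochberg adjusted p under 0.05, adjusted over all genes tested. By that rule 8 of the 10 members were called higher in VAT and 0 lower, where 2.68% of all genes tested were called higher and 1.88% lower. For all 10 members every VAT library exceeded every LN library, which held for 7.21% of genes tested. All 10 log2 differences were above 0, as were 46.4% of those of all genes tested, and their median was 2.91 over the members and -0.10 over all genes. In bulk RNA, more cells with a transcript and more of it per cell cannot be told apart. The part that tissue differences in B cell, NK cell and CD4 T cell markers have in these values was not tested. The same holds for macrophage, fibroblast and endothelial markers and for the dendritic cell marker sum.

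Of the regulatory IRGs, Igtp was at 60.4, 118, 64.0 and 126 CPM in HFD LN and at 1231, 1506, 989 and 1005 CPM in HFD VAT. The lowest VAT library lay several times above the highest LN library, and the log2 difference was 3.69 ± 0.34 (SE), a fold of 12.9 (edgeR adjusted p = 2.05e-05). Irgm1 was at 112, 223, 107 and 144 CPM in HFD LN and at 1008, 1049, 1457 and 1096 CPM in HFD VAT, a log2 difference of 2.98 ± 0.34 (edgeR adjusted p = 0.000132). Irgm2 was at 3.80, 5.20, 3.59 and 17.9 CPM in HFD LN and at 152, 384, 276 and 143 CPM in HFD VAT. Its difference, 4.97 ± 0.73 on the log2 scale or 31.3-fold, was the largest among the members called (edgeR adjusted p = 0.000864). In LN replicate 4 stood above the other 3, and the groups were far from overlapping. Without that replicate the log2 difference was 5.83 (edgeR adjusted p = 0.000453).

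The effector Iigp1, which loads onto the vacuole of Toxoplasma, had no count in HFD LN replicates 1 and 2 and 18.8 and 13.9 CPM in replicates 3 and 4. In HFD VAT it was at 28.6, 207, 106 and 111 CPM. The groups did not overlap, yet the spread inside LN was wide and the difference of 3.79 ± 2.08 on the log2 scale did not pass the test (edgeR adjusted p = 0.372).

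Among the GBPs, Gbp2, which is lipid-modified and recruited to pathogen vacuoles, was at 67.1 to 119 CPM in HFD LN and at 218, 652, 494 and 791 CPM in HFD VAT, a log2 difference of 2.56 ± 0.43 (edgeR adjusted p = 0.00240). Gbp3 was at 26.1 to 61.7 CPM in HFD LN and at 272 to 478 CPM in HFD VAT, with a log2 difference of 3.07 ± 0.65 (edgeR adjusted p = 0.0141). Without HFD LN replicate 1 or replicate 4 that call was lost, at edgeR adjusted p of 0.0526 and 0.0513, while the log2 difference stayed at 2.88 and 3.06. Gbp4, Gbp7 and Gbp9 had the highest counts of the GBP members. Gbp4 was at 81.4 to 211 CPM in HFD LN and 983 to 1369.8 CPM in HFD VAT (log2 difference 2.84 ± 0.36, edgeR adjusted p = 0.000255). Gbp7 was at 114 to 251 CPM in HFD LN and 706 to 1289 CPM in HFD VAT (2.68 ± 0.31 on the log2 scale, edgeR adjusted p = 0.000137). Gbp9 was at 111 to 234 CPM in HFD LN and 701 to 1125 CPM in HFD VAT (2.44 ± 0.40 on the log2 scale, edgeR adjusted p = 0.00224). Gbp5, known for promoting NLRP3 inflammasome assembly, was at 29.0, 81.1, 6.78 and 31.5 CPM in HFD LN and at 104, 234, 146 and 102 CPM in HFD VAT. The groups of Gbp5 did not overlap, and the log2 difference of 1.98 ± 1.34 did not pass the test (edgeR adjusted p = 0.517).

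**Figure D2:**
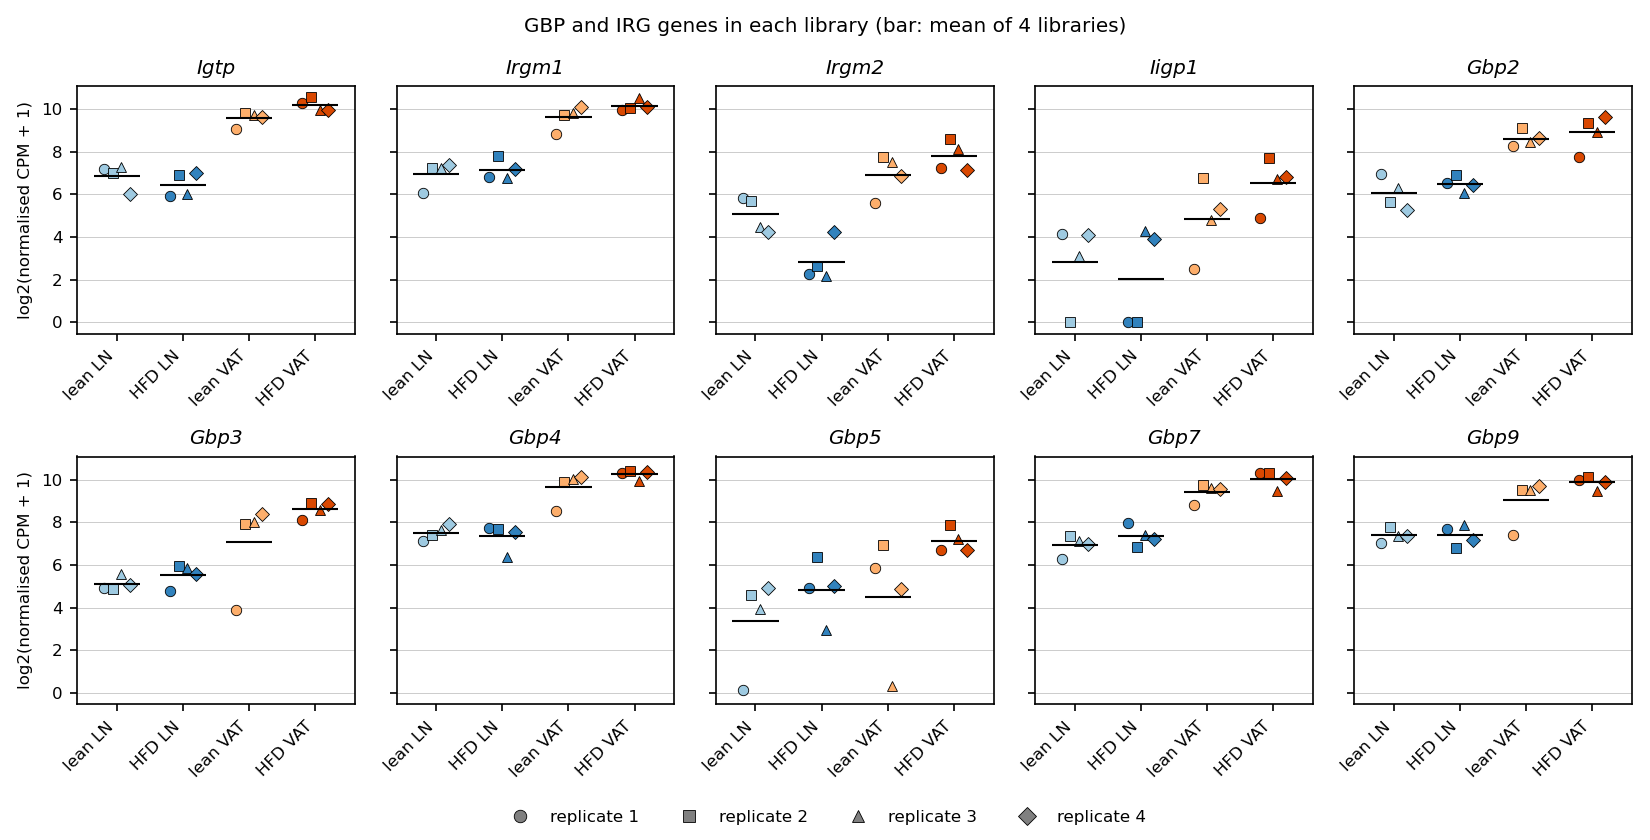
Level of each member in each library, as log2(normalised CPM + 1), by group, with a bar at the mean of the 4 libraries and the symbol giving the replicate number. On HFD all VAT libraries lie above all LN libraries in the 10 panels, and in lean VAT replicate 1 (circle) is the lowest of the VAT libraries for 8 members.

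In lean mice 7 of the 10 members were called higher in VAT than in LN and 0 lower, where 2.12% of all genes tested were called higher and 0.919% lower. The 7 were Igtp, Irgm1, Gbp2, Gbp3, Gbp4, Gbp7 and Gbp9. The summed level of the 10 members was 907 ± 94.3 CPM in lean LN and 4640 ± 1499 CPM in lean VAT (SD, n = 4). All 10 log2 differences were above 0, as were 49.8% of those of all genes tested, with a median of 2.35 over the members and -0.0029 over all genes. In 5 of the 10 (Igtp, Irgm1, Gbp2, Gbp4 and Gbp7) the libraries of the tissues did not overlap, against 7.24% of genes tested. Without lean VAT replicate 1, where the members summed to 2415 CPM against 5080 to 5549 CPM in the other 3, 9 of 10 did not overlap, against 10.9% of genes tested.

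Igtp was at 145, 129, 154 and 62.9 CPM in lean LN and at 544, 890.0, 841 and 805 CPM in lean VAT. The log2 difference was 2.65 ± 0.32 (edgeR adjusted p = 0.000280). Irgm1 was at 66.8, 151, 148 and 163 CPM in lean LN and at 456, 857, 889 and 1089.5 CPM in lean VAT, a log2 difference of 2.64 ± 0.34 (edgeR adjusted p = 0.000410). These 2 regulatory IRGs and Gbp3 had the largest log2 differences of the lean comparison, within their standard errors of each other. Without lean VAT replicate 1 that of Gbp3 was the largest, at 3.02 against 2.83 for Irgm1 and 2.78 for Igtp. Irgm2 was at 55.9, 51.2, 21.6 and 18.1 CPM in lean LN and at 47.2, 218, 180.0 and 116 CPM in lean VAT. Replicate 1 of lean VAT lay inside the LN range, and the log2 difference of 1.94 ± 0.64 did not pass (edgeR adjusted p = 0.154), nor did it without that library (2.22 ± 0.62, edgeR adjusted p = 0.0922). Irgm2 did pass in lean mice with DESeq2 (adjusted p = 0.0335) and with limma voom (adjusted p = 0.0154).

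Iigp1 in lean mice was at 16.7, 0, 7.74 and 16.4 CPM in LN and at 4.64, 106, 26.7 and 38.4 CPM in VAT. These groups overlapped through replicate 1 of lean VAT, and the log2 difference was 2.11 ± 1.94 (edgeR adjusted p = 0.838). Of the GBPs, Gbp2 differed by 2.48 ± 0.43 on the log2 scale (edgeR adjusted p = 0.00359), Gbp7 by a fold of 5.67 (0.000313) and Gbp4 by 2.22 ± 0.35 (0.00198). Gbp3 was at 28.9, 28.4, 46.9 and 32.7 CPM in lean LN and at 13.6, 243, 262 and 332 CPM in lean VAT, so that replicate 1 of lean VAT lay under every LN library. Its log2 difference was 2.64 ± 0.64 (edgeR adjusted p = 0.0399), and 3.02 ± 0.31 (edgeR adjusted p = 0.000113) without that replicate. The call of Gbp3 was lost when any of 14 of the 16 libraries was left out (all but HFD LN replicate 1 and lean VAT replicate 1), at adjusted p of up to 0.128. Gbp9 was at 130.0, 222, 166 and 162 CPM in lean LN and at 170.0, 734, 730 and 829 CPM in lean VAT, with replicate 1 again inside the LN range. The log2 difference of Gbp9 was 1.86 ± 0.40 (edgeR adjusted p = 0.0176) with all libraries and 2.16 ± 0.25 (edgeR adjusted p = 0.000331) without lean VAT replicate 1. Leaving out lean LN replicate 1, 3 or 4 or lean VAT replicate 2, 3 or 4 ended its call, at adjusted p of up to 0.0751. Gbp5 was at 0.0874, 22.8, 14.4 and 29.0 CPM in lean LN and at 56.4, 122, 0.256 and 28.1 CPM in lean VAT. Single libraries of both tissues held almost none of it (6 counts in lean LN replicate 1 and 12 in lean VAT replicate 3), and the log2 difference of 1.64 ± 1.33 did not pass (edgeR adjusted p = 0.775).

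**Figure D3:**
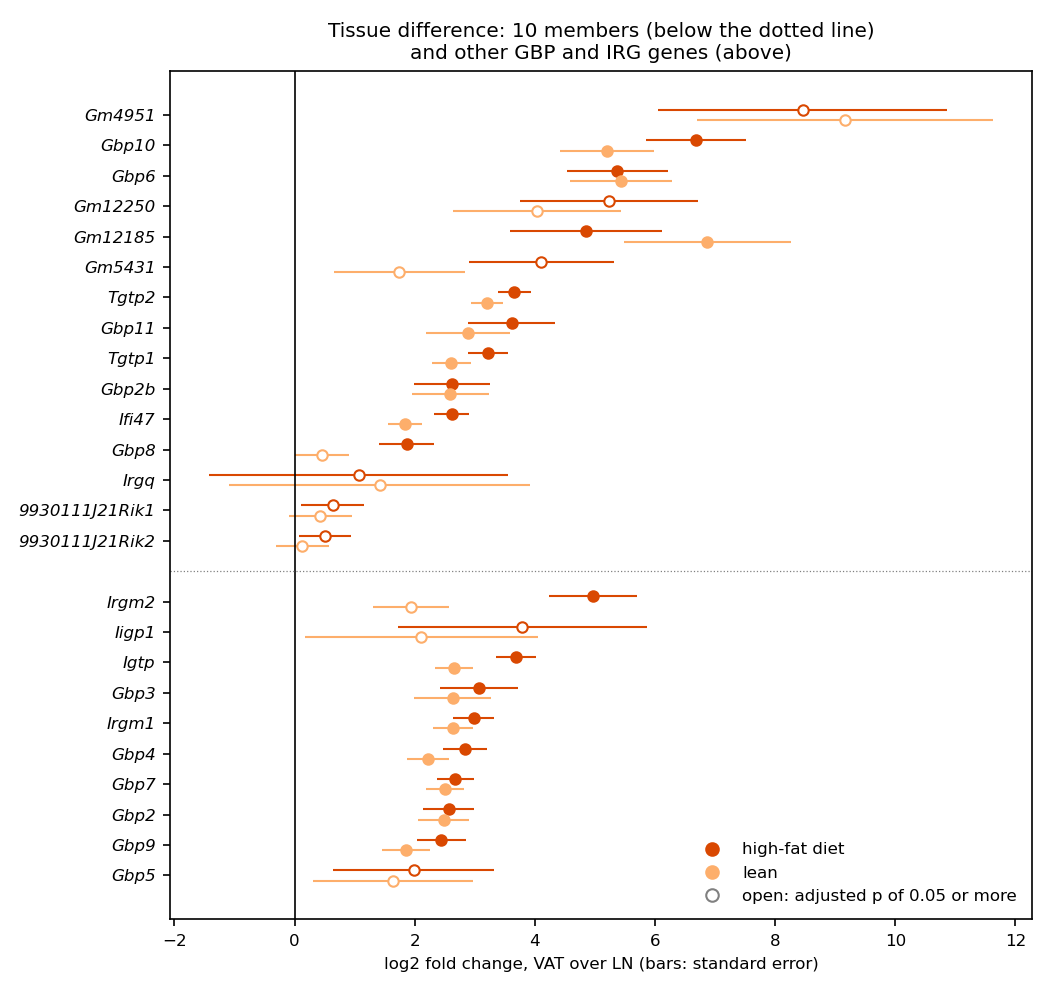
log2 fold change of VAT over LN with its standard error, on HFD (dark) and in lean mice (light), for the 10 members (lower block) and 15 other GBP and IRG genes (upper block), filled where the adjusted p was under 0.05. All points of the members lie above 0, and Iigp1 and Gbp5 have the widest bars among them. Gm12187 and Gm5970, which were at most 2.29 CPM in any library, are left out of the plot.

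The 2 tissue comparisons rest on different libraries, and whether their sizes differ was tested as the VAT minus LN difference in the effect of diet. For that difference 0 of 10 members were called by edgeR, where 0.0191% of all genes tested were called in either direction, and 2 members were under an unadjusted p of 0.05, against 6.16% of genes tested. By limma voom 0 members were called and by DESeq2 1. With all libraries the 10 estimates were above 0, as were 45.2% of those of all genes tested, but this held in only 16 of 24 alternatives. Without lean VAT replicate 1 the estimate of Gbp2 went from 0.082 to -0.029, that of Gbp7 from 0.17 to 0.011 and that of Gbp3 from 0.44 to 0.051. Gbp2 was also below 0 without HFD LN replicate 3, HFD VAT replicate 2 or 4, or lean LN replicate 1 (-0.30 to -0.021), Gbp5 without lean LN replicate 4 (-0.055) or lean VAT replicate 3 (-0.068), and Gbp2 and Gbp7 with limma voom. Irgm2 had the largest, 3.03 ± 0.89 on the log2 scale (edgeR adjusted p = 0.465, DESeq2 adjusted p = 0.0171), and 3.90 without HFD LN replicate 4. Igtp was the other member under 0.05, at 1.03 ± 0.43 (edgeR adjusted p = 0.754). Without lean VAT replicate 1 it was at 0.90 ± 0.44 (edgeR adjusted p = 0.795) and no longer under an unadjusted 0.05, which left Irgm2 alone.

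Diet was compared inside each tissue. In VAT 0 of 10 members were called between HFD and lean by edgeR, where 0.0574% of all genes tested were called in either direction, and 0 were called by DESeq2 or limma voom. None of the 10 was under an unadjusted p of 0.05, against 8.08% of genes tested. All 10 estimates were higher on HFD, as were 44.1% of those of all genes tested, with log2 differences of 0.42 to 1.51 and a median of 0.62, against -0.10 over all genes. Igtp was the only member whose HFD VAT libraries (989 to 1506 CPM) all lay above its lean VAT libraries (544 to 890.0 CPM), which held for 1.12% of genes tested. Its log2 difference was 0.62 ± 0.30 (edgeR adjusted p = 0.646). Gbp7 gave 0.61 ± 0.29 (edgeR adjusted p = 0.639) and Irgm1 0.49 ± 0.32 (edgeR adjusted p = 0.870).

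Replicate 1 of lean VAT was the lowest of the 8 VAT libraries for 8 of the 10 members, and replicate 2 of HFD VAT was the highest for 7. Without lean VAT replicate 1 the log2 diet difference in VAT went from 0.92 to 0.53 for Gbp3, from 0.62 to 0.31 for Gbp9, from 0.51 to 0.26 for Gbp4 and from 0.49 to 0.29 for Irgm1. Igtp went from 0.62 to 0.49 and remained the only member without overlap, against 2.49% of genes tested. Without the 3 VAT libraries with the largest share of missing genes, which leaves 2 libraries of HFD VAT and 3 of lean VAT, 7 of 10 members did not overlap, against 9.89% of genes tested, and 0 were called.

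**Figure D4:**
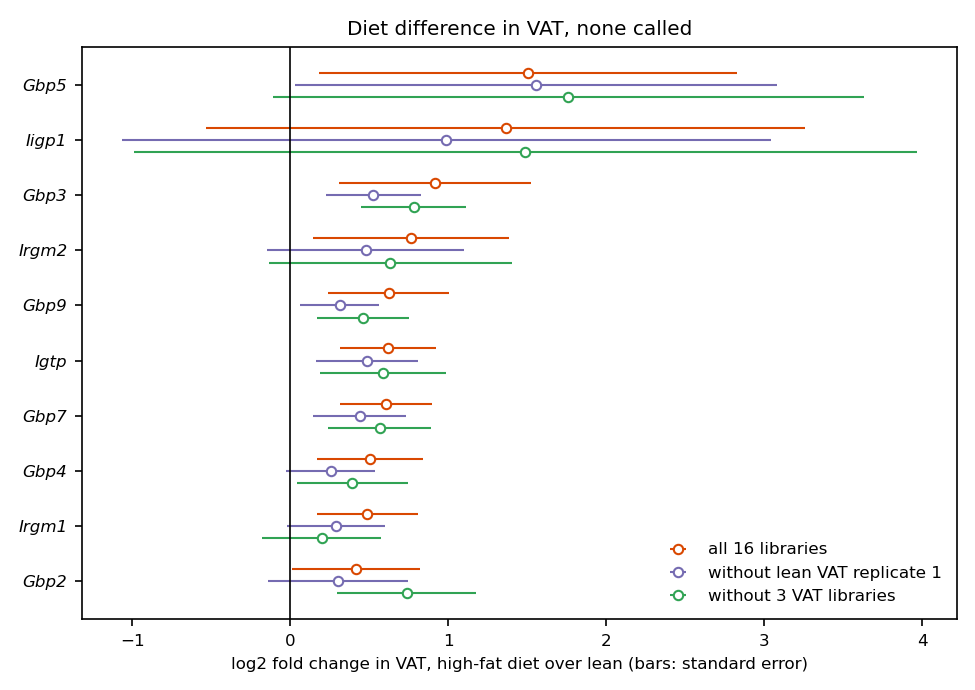
log2 fold change of HFD over lean in VAT with its standard error for each member, from all 16 libraries, without lean VAT replicate 1, and without the 3 VAT libraries with the largest share of missing genes. All estimates lie above 0 and none passed the test, with Gbp5 and Iigp1 the least precise.

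In LN 0 of 10 members were called between the diets by edgeR, where 0.0% of all genes tested were called, and 1 member was under an unadjusted p of 0.05, against 3.37% of genes tested. That member, Irgm2, was called by DESeq2 and not by limma voom. Its level was 7.63 ± 6.90 CPM in HFD LN and 36.7 ± 19.6 CPM in lean LN (SD, n = 4), and its HFD libraries all lay under its lean libraries, by a narrow gap between 17.9 and 18.1 CPM. No overlap in this direction was found for 1.19% of genes tested. The log2 difference was -2.26 ± 0.65 (edgeR adjusted p = 1, DESeq2 adjusted p = 0.0287), and -3.12 without HFD LN replicate 4 (edgeR adjusted p = 0.452). Igtp, which shares 15.9% of its 31-base sequences with Irgm2 in the transcripts of GENCODE M21, differed by -0.42 ± 0.30 (edgeR adjusted p = 1). For the other 8 members the log2 difference in LN was between -0.32 and 1.16.

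Inside each group the members did not vary alike. The coefficient of variation over 4 libraries was 13.9% to 47.8% in HFD VAT for the 8 members called there, and 64.4% for Iigp1. In HFD LN it was 118% for Iigp1, 90.5% for Irgm2 and 84.6% for Gbp5, against 23.7% to 37.5% for the other 7. In lean VAT it was 101% for Gbp5 and 99.7% for Iigp1, and 20.1% for Igtp, which was the steadiest member of that group.

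**Figure D5:**
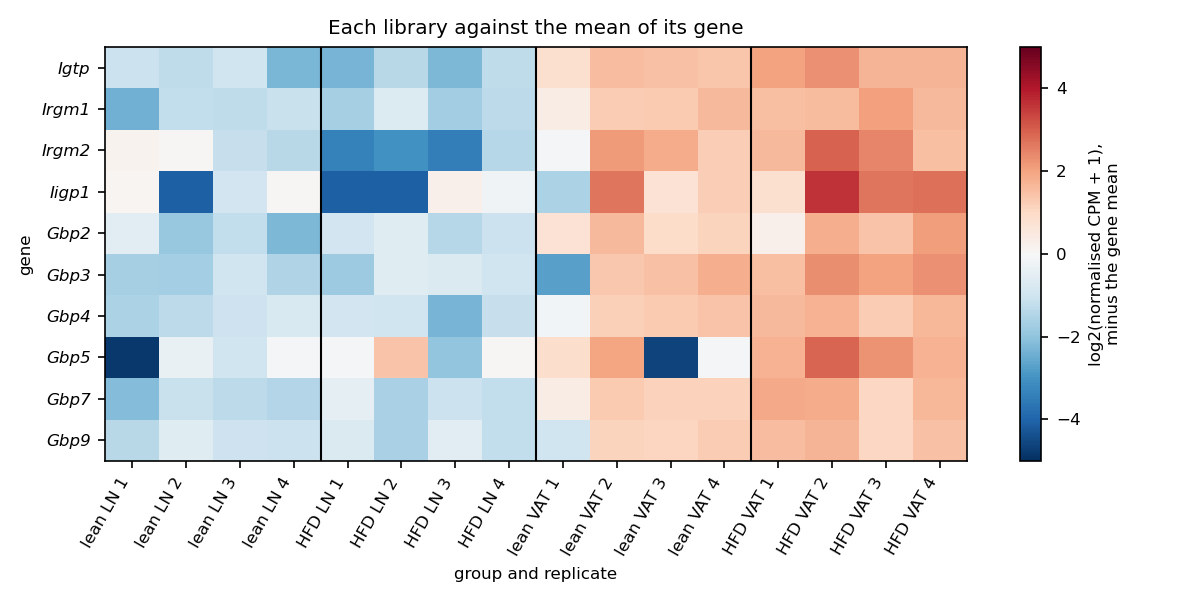
Level of each member (rows) in each library (columns) as log2(normalised CPM + 1) minus the mean of its gene over the 16 libraries, blue below and red above that mean. The VAT columns are mostly red and the LN columns mostly blue, and lean VAT replicate 1 is pale or blue for Irgm2, Iigp1, Gbp3, Gbp4 and Gbp9.

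Levels of different genes were compared per kilobase of their longest coding transcript in GENCODE M21. In HFD VAT 2 of the 3 IRG regulators led, with 585 ± 120 CPM per kilobase for Igtp and 510 ± 91.3 for Irgm1 (SD, n = 4), which is within their spread of each other. Gbp4 (271 ± 37.6), Gbp9 (216 ± 40.8), Gbp2 (214 ± 97.7) and Gbp7 (193 ± 47.5) followed, then Gbp3 (149.5 ± 35.6), and from Gbp4 to Gbp3 the range of mean ± SD of each gene overlapped that of its neighbour. Irgm2 (67.6 ± 32.3), Gbp5 (47.9 ± 20.3) and Iigp1 (36.3 ± 23.4) came last, again with overlapping ranges between neighbours, while Irgm1 and Gbp4, and Gbp3 and Irgm2, were apart. In HFD LN Irgm1 was at 64.7 ± 23.7 and Igtp at 45.5 ± 17.1 CPM per kilobase, and Irgm2 (2.16 ± 1.96) and Iigp1 (2.62 ± 3.09) were the lowest, within their spread of each other.

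Other genes of the families were looked at beside the members. Of 27 further names, 20 were in the table and 17 passed the filter. On HFD 9 of the 17 were called higher in VAT and 0 lower, where 2.68% of all genes tested were called higher. In lean mice 8 of 17 were called higher and 0 lower, where 2.12% of all genes tested were called higher. All 17 estimates were above 0 on both diets, as were 46.4% of those of all genes tested on HFD and 49.8% in lean mice. The 9 were Tgtp1, Tgtp2, Ifi47, Gm12185, Gbp2b, Gbp6, Gbp8, Gbp10 and Gbp11, and the 8 were the same without Gbp8. On HFD the call was lost in 17 of 25 alternatives for Gm12185, 13 of 24 for Gbp2b and 9 of 25 for Gbp8. In lean mice it was lost in 17 of 24 for Gbp2b, 13 of 25 for Gbp11 and 3 of 25 for Gm12185. Tgtp2, a GTPase of the effector IRG class, was at 127 ± 22.5 CPM in HFD LN and 1606 ± 387 CPM in HFD VAT (log2 difference 3.66 ± 0.28, edgeR adjusted p = 3.46e-06). Ifi47 was at 214 ± 23.4 CPM and 1311 ± 160 CPM (2.61 ± 0.29 on the log2 scale, edgeR adjusted p = 0.000103). Gbp10 was at 2.33 ± 1.20 and 239 ± 36.0 CPM, and Gbp6 at 9.76 ± 8.02 and 404 ± 107 CPM, in HFD LN and HFD VAT. These values of Tgtp1, Tgtp2, Gbp6 and Gbp10 are uncertain one by one, because 84.4%, 90.5%, 74.3% and 89.8% of their 31-base sequences also occur in other genes. The same holds for 9930111J21Rik1 (88.9%) and 9930111J21Rik2 (70.6%), described below. The share was 28.7% to 47.2% for Gm12185, Gbp8, Gbp11, Gm12187 and Gm5431. For the 10 members that share was 2.88% (Irgm1) to 18.3% (Gbp9).

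Gbp8 was at 24.9 to 140.5 CPM in HFD LN and 152 to 403 CPM in HFD VAT (log2 difference 1.86 ± 0.46, edgeR adjusted p = 0.0325), and at 63.9 to 96.4 and 87.1 to 163 CPM in lean LN and VAT (0.46 ± 0.45, edgeR adjusted p = 0.861). Its difference of diet effects was 1.41 ± 0.63 (edgeR adjusted p = 0.781). Irgq, 9930111J21Rik1 and 9930111J21Rik2, which were counted in both tissues, were not called in either diet by edgeR, DESeq2 or limma voom. Gm4951, Gm12250, Gm12187 and Gm5970 were not called in either diet by edgeR in the main fit. With a filter of 5 CPM in 4 libraries edgeR called Gm12250 on HFD (adjusted p = 0.0451) and Gm4951 in lean mice (adjusted p = 0.0495). On the compared groups alone edgeR called Gm12250 in lean mice (adjusted p = 0.00111). DESeq2 and limma voom called Gm4951, Gm12250 and Gm12187 on both diets. On HFD the DESeq2 adjusted p was 8.54e-06 for Gm4951, 0.000404 for Gm12250 and 0.00628 for Gm12187. Gm5970 was called by limma voom in lean mice (adjusted p = 0.0343). Gm5431 was at 1.07 ± 0.50 CPM in HFD LN and 18.6 ± 23.6 CPM in HFD VAT (edgeR adjusted p = 0.0721, DESeq2 0.000170 and limma voom 0.0151, and edgeR 0.0171 without lean VAT replicate 1). Between the diets 0 of the 17 were called by edgeR, DESeq2 or limma voom in VAT or in LN. In VAT 2 and in LN 1 were under an unadjusted p of 0.05, against 8.08% and 3.37% of all genes tested.

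Upstream of the family, the ligand interferon-gamma (Ifng) was at 2.22 ± 2.83 CPM in HFD LN and 205 ± 68.7 CPM in HFD VAT, and at 1.72 ± 3.43 and 257 ± 11.5 CPM in lean LN and VAT (SD, n = 4). The tissues did not overlap on either diet, and neither difference passed the test (edgeR adjusted p = 0.140 and 0.155), while limma voom called both. The diet difference of Ifng in VAT was not called either. Ifnb1, Ifne and the listed Ifna genes had no count in any library, where 3 counts would be 0.0437 to 0.0803 CPM.

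Of 7 receptor chains and kinases, 1 was called higher and 1 lower in VAT on both diets. Over all genes tested, 2.68% were called higher and 1.88% lower on HFD, and 2.12% and 0.919% in lean mice. Ifngr1, the ligand-binding chain of the interferon-gamma receptor, was at 839 ± 95.7 CPM in HFD LN and 3323 ± 228 CPM in HFD VAT (log2 difference 1.99 ± 0.23, edgeR adjusted p = 0.000120), and differed by 2.12 ± 0.23 in lean mice. Jak1, a kinase of both interferon receptors, was lower by a log2 difference of -0.97 ± 0.19 on HFD (edgeR adjusted p = 0.00725) and -1.29 ± 0.19 in lean mice. Ifngr2, the signalling chain of the interferon-gamma receptor, was at 87.6 ± 26.7 CPM in HFD LN and 4.14 ± 7.70 CPM in HFD VAT. In lean LN and VAT it was at 118 ± 23.7 and 14.6 ± 19.3 CPM. Every VAT library lay below every LN library on both diets, which held for 8.01% of genes tested on HFD and 5.7% in lean mice. The log2 differences of -4.40 ± 1.91 and -3.01 ± 1.79 were not called (edgeR adjusted p = 0.229 and 0.567).

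Among 11 tested transcription factors of GBP and IRG induction, 7 were called higher in VAT on HFD and 6 in lean mice, and 0 lower. The shares called higher over all genes tested were 2.68% and 2.12%. Irf7, a factor of type I interferon induction, was at 81.5 ± 36.0 CPM in HFD LN and 3931 ± 275 CPM in HFD VAT (5.59 ± 0.35 on the log2 scale, edgeR adjusted p = 8.63e-07) and differed by 4.86 ± 0.33 in lean mice, and Stat3 differed by 2.13 ± 0.19 on HFD. Also called on HFD were Stat2, Irf9, Irf1 and Nlrc5, which were named after their values were seen. Irf1, an activator of Gbp2 and other GBPs, was at 305 ± 104 CPM in HFD LN and 788 ± 131 CPM in HFD VAT (1.37 ± 0.25 on the log2 scale, edgeR adjusted p = 0.00438), and in lean mice it differed by 0.72 ± 0.24 and did not pass (edgeR adjusted p = 0.166).

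Of 9 inhibitors of interferon signalling 1 was called higher in VAT on HFD and 2 in lean mice, against 2.68% and 2.12% of all genes tested. Usp18, which blocks type I receptor signalling, was at 19.9 ± 13.9 CPM in HFD LN and 1542 ± 192 CPM in HFD VAT (log2 difference 6.28 ± 0.58, edgeR adjusted p = 2.05e-05). Cish had no count in lean LN and 221 ± 72.5 CPM in lean VAT, where it was called (edgeR adjusted p = 0.0116). On HFD it was at 1.49 ± 2.97 CPM in LN and 241 ± 108 CPM in VAT. Those groups did not overlap, and the difference did not pass (edgeR adjusted p = 0.0670), though it did in 4 of 25 alternatives. Socs1, the inhibitor most known for limiting interferon-gamma signals, was at 161 ± 36.2 CPM in HFD LN and 211 ± 25.1 CPM in HFD VAT (0.39 ± 0.22 on the log2 scale, edgeR adjusted p = 0.400). Of 5 tested members of other interferon-inducible GTPase groups, 4 were called higher in VAT on HFD and 3 in lean mice, against the same shares of all genes tested. Mx1 was at 0.132 ± 0.201 and 681 ± 243 CPM, and Gvin1 at 6.09 ± 3.54 and 148 ± 18.5 CPM, in HFD LN and HFD VAT.

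The machinery that GBPs and IRGs work with was read from the same fit. Of 9 prenylation and GDI factors, which attach GBPs to membranes or extract prenylated proteins, 0 were called between tissues on either diet by edgeR. On HFD 1 of them was under an unadjusted p of 0.05, against 18.8% of all genes tested, and DESeq2 and limma voom called 0. In lean mice 2 were, against 13.8% of all genes tested, with DESeq2 calling 1 and limma voom 0. Of 12 LC3 and GABARAP conjugation factors, which position IRGs and GBPs on vacuoles, 0 were called on either diet by edgeR. On HFD 2 were under an unadjusted p of 0.05, against the same 18.8% of all genes tested, and DESeq2 and limma voom called 1 each. In lean mice 2 were, against 13.8%, with DESeq2 calling 0 and limma voom 1. Of 8 ubiquitin and p62 factors 3 were called higher on HFD (Ubb, Rnf213 and Trim21) and 2 in lean mice (Ubb and Rnf213). Over all genes tested, 2.68% were called higher on HFD and 2.12% in lean mice. Rnf213, a large ubiquitin ligase, was at 22.5 ± 12.7 CPM in HFD LN and 478 ± 130 CPM in HFD VAT (log2 difference 4.41 ± 0.68, edgeR adjusted p = 0.00124). Of 6 inflammasome partners, Zbp1 was the only gene called by edgeR with all libraries on either diet, at 70.3 ± 34.6 CPM in HFD LN and 1901 ± 222 CPM in HFD VAT (4.76 ± 0.34 on the log2 scale, edgeR adjusted p = 2.71e-06). DESeq2 called 3 of the 6 on HFD and 2 in lean mice, limma voom 2 and 3, and edgeR 2 on each diet without lean LN replicate 4. Between diets edgeR called 0 genes of any of these lists in VAT or in LN. In VAT limma voom called 1 gene each among the transcription factors, the inhibitors, the ubiquitin and p62 factors and the inflammasome partners, and DESeq2 called 0. There 1 receptor or kinase, 1 prenylation or GDI factor and 1 inflammasome partner were under an unadjusted p of 0.05, against 8.08% of all genes tested. In LN DESeq2 called 1 of the other interferon-inducible GTPases and 1 inhibitor and limma voom 0. There 1 such GTPase, 2 inhibitors, 1 conjugation factor and 1 ubiquitin or p62 factor were under an unadjusted p of 0.05, against 3.37% of all genes tested.

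The genes outside the lists whose pattern over the 16 libraries was nearest to the mean of the members were Ifi206, Cd69, Ifi213, Dtx3l and Adgrg5. Their root mean square difference, on log2(normalised CPM + 1) centred on each gene's mean, was 0.37, 0.43, 0.44, 0.45 and 0.46, against a median of 1.74 over all genes tested. The members themselves were at 0.41 (Gbp4) to 1.87 (Gbp5). Cd69, an early activation and tissue retention marker of T cells, was at 108 ± 29.5 CPM in HFD LN, 1115 ± 67.0 CPM in HFD VAT, 123 ± 32.8 CPM in lean LN and 636 ± 147 CPM in lean VAT. Ifi206 and Ifi213, DNA-sensor-like genes of the interferon-inducible p200 family, were at 1575 ± 93.4 and 1033 ± 144 CPM in HFD VAT and at 282 ± 33.2 and 184 ± 26.4 CPM in HFD LN.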

How the data were processed

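The authors deposited unnormalised whole-number counts for 54456 gene rows in 16 libraries. The submitters' processing notes name kallisto 0.42.4, DESeq2 and the human build GRCh38, while the gene names are those of mouse. How estimates became whole counts is not given in the sources used here, and kallisto assigns reads shared by similar genes by estimation, so the values of near-identical family members are uncertain. The labels name more than 1 library kit and sequencer. Reads are not independent molecules.

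CPM were computed on TMM-normalised library sizes. All genes passing filterByExpr (15675) were fitted with edgeR 4.0.16 in R 4.3.3 (quasi-likelihood F-test, robust, 4 groups, no covariate, common dispersion 1.52), with Benjamini-Hochberg adjustment over all of them. Standard errors were computed as the log2 difference over the square root of F. With no statement of which libraries share an animal, p-values measure the spread between these libraries. Replicates of a group differed beyond sampling noise (chi-square over degrees of freedom of 266 to 992 over 24 pairs).

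The fit was repeated with RLE or upper quartile scaling, without a filter, with a filter of 5 CPM in 4 libraries, on the compared groups alone, with a replicate block, with each library or 3 VAT libraries left out, and with DESeq2 1.42.0 or limma 3.58.1 (voom, sample weights) as the test. The pipeline was tested on simulated data. Members, lists and tests were chosen with earlier results of these data known. The text names all 10 members, the other GBP and IRG genes that passed the filter, up to 3 genes per list, direction and tissue comparison with the smallest adjusted p among those called, and the 5 nearest genes outside the lists, and some further list genes with their values for context, chosen after seeing them. Some genes that this rule names are not reported here. Promoter windows come from RefSeq, and 31-base sequences and transcript lengths from GENCODE M21. Protein sequences were not used here. Python 3.11.15 with NumPy 2.4.6, pandas 2.3.3 and Matplotlib 3.10.9 made the tables and plots.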

Additional observations from a re-analysis of the deposited data

Results flagged for a closer look

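Of 40 checks (10 members in 4 groups of 4 libraries), 3 had 1 library whose gap to its nearest neighbour, divided by the range of its group, was above Dixon's 95% critical value. Chance flags about 1 in 20 such groups. Irgm1 in lean LN replicate 1 was at 66.8 CPM, below 148 to 163 CPM in the other 3 (gap over range 0.843). Irgm2 in HFD LN replicate 4 was at 17.9 CPM, above 3.59 to 5.20 CPM in the other 3 (0.888). Gbp9 in lean VAT replicate 1 was at 170.0 CPM, below 730 to 829 CPM in the other 3 (0.850), in the library with the largest share of missing genes, 13.3%.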

How the results depend on the processing

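The number of members called between tissues was 7 to 9 on HFD and 5 to 8 in lean mice over 25 alternatives each, and 7 to 8 and 5 to 7 when 1 library was left out. Members called between diets in VAT were 0 in all 25. DESeq2 called 1 member in LN and 1 for the difference of diet effects, Irgm2 in both. Over all genes the calls on HFD were 714, and 441 with no filter and 2578 with DESeq2, and in lean mice 476, and 1569 with DESeq2 and 1373 with voom. For diet they were 9 in VAT (0 to 769 over the alternatives), 0 in LN (up to 236) and 3 for the difference (0 to 635). Gbp3 lost its lean call in 18 of 25 alternatives (adjusted p up to 0.173) and Gbp9 in 8 (up to 0.0922), and Iigp1 passed on HFD with voom (adjusted p = 0.0364). Other GBP and IRG genes called were 6 to 13 on HFD and 5 to 12 in lean mice, and counts in the other lists moved by at most 2 genes. Signs turned for genes that were not called: Irgq on HFD was -0.72 with voom, -1.54 without 3 VAT libraries and -2.10 (without HFD VAT replicate 1) to 1.90 with 1 library left out, and 9930111J21Rik2 in lean mice was -0.055 (without lean VAT replicate 4), -0.032 (without lean VAT replicate 3) and up to 0.47 with 1 library left out. In LN the diet difference with 1 library left out ran from -0.14 to 0.26 for Irgm1, -1.15 to 0.093 for Iigp1, -0.24 to 0.12 for Gbp4 and -0.14 to 0.19 for Gbp9, and the difference of diet effects from -0.30 to 0.35 for Gbp2 and -0.068 to 1.24 for Gbp5, with -0.045 for Gbp2 and -0.077 for Gbp7 with voom. The cause was not tested. Another scaling moved the median log2 difference of all genes by at most 0.10.

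With the replicate block 8 members were called on HFD and 5 in lean mice, where Gbp3 (adjusted p = 0.0885) and Gbp9 (0.0593) were lost. Same-numbered libraries did not deviate together (r of -0.079 to 0.039 over 16 pairings, own number best in 7). With the wide spread between replicates, that check cannot decide whether same-numbered libraries came from the same mouse. The difference of diet effects could not be fitted with only the groups compared, as it uses all 4. At this depth 3 counts are 0.0437 to 0.0803 CPM, and Iigp1 had no count in 3 LN libraries.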
